A study of Homo sapiens with 3 samples.

Results

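The genes described here are the long noncoding RNAs NEAT1 and MALAT1 and the genes of 4 paraspeckle proteins, NONO, SFPQ, PSPC1 and RBM14. They are 6 of the 60504 gene identifiers in the expression table, taken by name. The set was selected on the FPKM values of the 3 libraries compared below, so every ratio to the control given for these genes is a description without a test. FPKM, the unit of the table, is the number of fragments divided by the exon length and by the depth of the library. Genes were kept when the average of the control level and the clones' mean level reached 1 FPKM. All 6 genes passed this filter, as did 11675 identifiers in all.

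RNA-Seq was performed on DLD1, a human colorectal cancer cell line. There was 1 library of DLD1 control cells, wild type at BEX2, and 1 library from each of 2 BEX2-/- DLD1 clones, in which BEX2 had been knocked out with CRISPR/Cas9. The control has no replicate and each clone is a single line grown from edited cells, so a difference that both clones share cannot be told apart from a deviation of the 1 control library. BEX2 itself, a small adaptor protein, was listed at 0 FPKM in all 3 libraries, and its RNA is therefore no check of the labels. The libraries held 47458850, 35593989 and 47722374 reads in the control, clone 1 and clone 2, as recovered from the steps between low values. Of 10 colorectal epithelium markers, 9 passed the filter, and EPCAM stood at 265, 282 and 220 FPKM. The clones parted in KRT20, a keratin of differentiated colonocytes, at 18.9 FPKM in the control, 117 in clone 1 and 0.931 in clone 2. The summed markers of fibroblasts, leukocytes and endothelium stayed below 1 FPKM in every library.

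Paraspeckles are bodies in the nucleus that assemble on NEAT1. The NEAT1 locus gives a short RNA that ends at an early polyadenylation site and a long RNA that reads past this site. The long form is the scaffold, to which dimers of the related proteins NONO, SFPQ and PSPC1 bind, and RBM14 bridges the bound units. MALAT1 is transcribed from the neighbouring locus and accumulates in nuclear speckles, bodies rich in splicing factors. The ends of MALAT1 and of long NEAT1 are unusual in that ribonuclease P cuts on the 5′ side of a tRNA-like fold. The new end is then protected by a triple helix of U-rich stretches and an A-rich tail in place of a poly(A) tail.

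The ends are shown first, since the library kit, Illumina TruSeq RNA, selects RNA by its A stretches in its usual form and these RNAs lack a poly(A) tail. The sequences below are the genome's, read 5′ to 3′ from GENCODE release 29 transcripts, with T for U. In the first pair, the 100 bases before the ribonuclease P cleavage site, capitals mark runs of at least 4 A or 4 T.
NEAT1 long form, last bases: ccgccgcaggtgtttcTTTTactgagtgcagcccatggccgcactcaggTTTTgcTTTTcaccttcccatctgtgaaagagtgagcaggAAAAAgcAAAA
MALAT1, bases before the tRNA-like RNA: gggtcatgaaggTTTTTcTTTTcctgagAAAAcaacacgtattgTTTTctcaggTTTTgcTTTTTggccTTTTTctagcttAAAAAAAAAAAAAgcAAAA
Both ends hold the T-rich stretches and finish in the same letters, an A run, gc and AAAA. In the MALAT1 stretch 21 bases were A in such runs and 27 were T, against 9 and 12 in the NEAT1 stretch.

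The small tRNA-like RNAs that follow these ends have gene entries of their own. They lie at chr11:65445541-65445598 and chr11:65506117-65506173 on the plus strand of GRCh38.
NEAT1 RF01684: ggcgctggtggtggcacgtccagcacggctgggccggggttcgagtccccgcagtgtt
MALAT1 RF01684: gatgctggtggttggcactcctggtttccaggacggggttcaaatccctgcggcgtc
Aligned to each other, 40 of 59 columns were identical (67.8%). Both entries were listed at 0 FPKM in all 3 libraries, as were the other small RNA families annotated inside NEAT1 and MALAT1. All but the NEAT1 RF01684 entry overlap NEAT1 or MALAT1 on the same strand. How reads were assigned where genes overlap is not given in the sources used here. A value of 0 there does not show that the RNA was absent.

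An oligo-dT bead can also bind runs of A within a transcript, and the longest in each RNA is capitalised here. In MALAT1 it belongs to the end stretch printed above.
NEAT1 longest run of A: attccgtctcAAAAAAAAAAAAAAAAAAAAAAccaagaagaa
MALAT1 longest run of A: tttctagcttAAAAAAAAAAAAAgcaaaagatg
The NEAT1 run is 22 bases long and begins at base 18046 of the 22743 bases of the long form, which has 5 runs of at least 10 A. The 7 other annotated NEAT1 transcripts have no such run, and the longest run in the longest of them, of 3524 bases, is 5 bases. The MALAT1 run is 13 bases long and begins at base 8337 of the 8708 bases of the longest MALAT1 transcript, which holds 1 run of at least 10 A. How far these stretches or the tails set the measured levels was not tested.

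NEAT1 (ENSG00000245532) was higher in both BEX2-/- clones than in the control. It is annotated at chr11:65422774-65445540 on the plus strand of GRCh38 with 8 transcripts whose merged exons span 22767 bases. Its level was 9.57 FPKM in the control, 22.5 in clone 1 and 21.5 in clone 2, or 10338, 18240 and 23372 reads. The clones lay close together, at 22.0 ± 0.705 FPKM (SD, n = 2), and the control lay below both by 12.4 FPKM from their mean, 17.7 times the SD between the clones. Such a multiple, for NEAT1 and for the genes below, rests on 2 clones and does not measure the spread of the control. It also depends on scaling, since the log2 ratio of clone 2 to clone 1 was -0.063 as given and -0.0064 by the median ratio. The ratio of FPKM to the control was 2.35 in clone 1, with an exact 95% interval of 2.30 to 2.41, and 2.25 in clone 2, with an interval of 2.20 to 2.30. These intervals, here and below, are conditional binomial intervals of the recovered reads and cover counting error only. Clone 2 against clone 1 gave a ratio of 0.956 (0.937 to 0.974).

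On the log2(FPKM + 1) scale NEAT1 was 1.15 above the control in clone 1 and 1.09 above it in clone 2. Among the 11675 genes past the filter, 99.2% had a lower log2 ratio in clone 1 and 98.9% in clone 2. By level NEAT1 ranked 3919 of these genes in the control, 1710 in clone 1 and 1762 in clone 2. Among 728 annotated long noncoding RNA genes with at least 200 bases of exon, a class set after values were seen, its level ranked 55 in the control, 16 in clone 1 and 15 in clone 2.

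The FPKM of NEAT1 depends on which form the reads came from, because the values fit a division by the merged length of all its exons. If every NEAT1 read were divided by the 3524 bases of the longest short transcript, the level would be 61.8 FPKM in the control, 145 in clone 1 and 139 in clone 2. The ratios to the control do not change with this length. As a share of the library, NEAT1 took 218 of every 1000000 reads in the control, 512 in clone 1 and 490 in clone 2. The table has 1 value for the gene, so the short and the long form were not told apart. In a bulk library, more RNA per cell and more cells with the RNA cannot be told apart either.

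MALAT1 (ENSG00000251562) was also lowest in the control, but the clones differed more from each other. It is annotated at chr11:65497688-65506516 on the plus strand of GRCh38, with 17 transcripts. MALAT1 stood at 4.66 FPKM in the control, 10.5 in clone 1 and 7.98 in clone 2, or 1936, 3270 and 3333 reads. These read numbers rest on a length of 8755 bases, found by the search for whole reads, because the merged exons of release 29 gave none. The clones averaged 9.24 ± 1.78 FPKM (SD, n = 2), and the control lay below both by 4.58 FPKM from their mean, 2.57 times the SD between them.

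The ratio of MALAT1 FPKM to the control was 2.25 in clone 1 (2.13 to 2.38) and 1.71 in clone 2 (1.62 to 1.81). Clone 2 held 0.760 of the level of clone 1 (0.724 to 0.798), a gap wider than counting error. On the log2(FPKM + 1) scale the differences from the control were 1.02 and 0.67, which placed MALAT1 above 99.0% of genes in clone 1 and 96.4% in clone 2. The log2(FPKM + 1) difference of clone 1 lies just past 2-fold. Scaled by the median ratio of all genes it was 0.98, just inside.

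NEAT1 exceeded MALAT1 in every library. NEAT1 over MALAT1 was 2.05 in the control, 2.15 in clone 1 and 2.70 in clone 2 by FPKM. MALAT1 is known as one of the most abundant nuclear RNAs of many cell types. In these libraries it ranked 6439 of 11675 genes in the control, 3741 in clone 1 and 4565 in clone 2. In a list of RNAs that carry no poly(A) tail, which includes RPPH1, TERC and RN7SL1, no entry passed the filter, and their summed level was 0.794 FPKM in the control, 1.30 in clone 1 and 0.186 in clone 2.

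The RNAs of the paraspeckle proteins did not share the direction of NEAT1. NONO (ENSG00000147140; chrX:71283192-71301168, plus strand, GRCh38), an RNA- and DNA-binding protein that pairs with SFPQ or PSPC1, had the highest level of the 6 genes in every library. It measured 113 FPKM in the control, 98.1 in clone 1 and 111 in clone 2, so that the control lay above both clones, although as TPM the log2 ratio of clone 2 was 0.052. The ratio to the control was 0.870 in clone 1 (0.854 to 0.886) and 0.987 in clone 2 (0.970 to 1.00). The mean of the clones, 105 ± 9.29 FPKM (SD, n = 2), differed from the control by 0.870 times their SD.

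SFPQ (ENSG00000116560; chr1:35176378-35193148, minus strand, GRCh38), the larger partner of NONO and also a splicing and transcription factor, had 65.7 FPKM in the control, 67.4 in clone 1 and 51.5 in clone 2. The control thus lay between the clones, though scaled by the median ratio clone 1 was at -0.0071 on the log2 scale, below it. The mean of the clones was 59.5 ± 11.2 FPKM (SD, n = 2). Its ratio to the control was 1.03 in clone 1 (1.01 to 1.05) and 0.785 in clone 2 (0.769 to 0.800).

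PSPC1 (ENSG00000121390; chr13:19674752-19783019, minus strand, GRCh38), the protein by which paraspeckles are commonly recognised, had 20.6 FPKM in the control, 20.2 in clone 1 and 13.9 in clone 2. Clone 2 stood apart from the other libraries, with a ratio of 0.677 to the control (0.647 to 0.708) and of 0.689 to clone 1 (0.656 to 0.723). The ratio of clone 1 to the control was 0.983 (0.940 to 1.03). The clones averaged 17.1 ± 4.45 FPKM (SD, n = 2).

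RBM14 (ENSG00000239306; chr11:66616582-66627347, plus strand, GRCh38), a prion-like-domain protein needed for paraspeckle assembly, varied least between the libraries. It measured 18.4 FPKM in the control, 17.2 in clone 1 and 18.4 in clone 2, with ratios to the control of 0.931 (0.884 to 0.981) and 1.00 (0.955 to 1.05). The clones averaged 17.8 ± 0.914 FPKM (SD, n = 2). For each of the 4 protein genes the control lay within 1 SD of the mean of the clones. With 2 clones this must hold wherever the control lies between them, as for SFPQ and RBM14. For PSPC1 the SD was wide because clone 2 stood apart. Nothing is therefore read from this closeness.

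A gene counted as changed when it was at least 2-fold apart on the log2(FPKM + 1) scale. In clone 1, NEAT1 and MALAT1 were past 2-fold higher, 2 of the 6 genes, where 1.06% of the 11675 genes were. In clone 2 it was NEAT1 alone, where 1.33% of all genes were higher by this rule. None of the 6 genes was past 2-fold lower in either clone, against 0.959% of all genes in clone 1 and 0.737% in clone 2. Because the genes were chosen with these values known, nothing is read from these shares.

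NEAT1 was the 1 gene of the 6 that was past 2-fold higher in both clones, which share the control library. This held for 14 of all genes (0.120%), while 24 were past 2-fold lower in both (0.206%). Of the 14, 9 have under 200 bases of exon, and NEAT1 was among the 3 with over 100 reads in every library. None of the 6 genes differed 2-fold between clone 2 and clone 1, as 4.19% of all genes did in either direction. Among the 728 long noncoding RNA genes, NEAT1 was the 1 past 2-fold higher in both clones (0.137%), and 4 were past 2-fold lower in both (0.549%), H19 among them. Ordered by the smaller of the log2 ratios of the clones, NEAT1 came 1 and MALAT1 6 of the 728. Both genes, and this class, were chosen after values were seen, so nothing is read from this order or from these shares.

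Ratios between the 6 genes follow from these levels, with NEAT1 taken as the whole gene. The summed FPKM of NONO, SFPQ and PSPC1 was 199 in the control, 186 in clone 1 and 177 in clone 2. Divided by the FPKM of NEAT1, this sum was 20.8 in the control, 8.25 in clone 1 and 8.22 in clone 2. NONO over SFPQ was 1.72, 1.46 and 2.16 in the same order, and NONO over PSPC1 was 5.48, 4.85 and 7.99, with the control between the clones in both.

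In order of level, NONO and SFPQ came first and second and MALAT1 last in every library. NEAT1 lay below PSPC1 and RBM14 in the control and above both in each clone. This order rests on the merged exon length, since with the length of the longest short transcript NEAT1 would lie above both in the control too. In the clones NEAT1 ranged from 21.5 to 22.5 FPKM, above PSPC1 at 13.9 to 20.2 and RBM14 at 17.2 to 18.4. PSPC1 and RBM14 overlapped and changed places between the clones.

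Pseudogenes and overlapping genes took few reads beside the 6 genes. The processed pseudogene NONOP2 had 39, 29 and 34 reads in the control, clone 1 and clone 2, and the antisense gene PSPC1-AS2 had 12, 3 and 8. RBM14-RBM4, a readthrough of RBM14 into the next gene, had 14, 12 and 18 reads. The strand setting of the counting is not given in the sources used here, so antisense reads at these loci cannot be told apart from sense reads.

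The other paraspeckle proteins are described by a list of 30, of which 29 entries passed the filter. None was past 2-fold in either clone, where 0.737% to 1.33% of all genes were by clone and direction. Their median log2 ratio was -0.053 in clone 1 (0.019 as TPM) and -0.075 in clone 2, beside 0.037 and -0.013 over all genes, and 5 lay above the control in both clones and 10 below it in both. Over all genes past the filter, 32.4% lay above the control in both clones and 27.7% below it. HNRNPK, which sets the balance of the NEAT1 forms at the early polyadenylation site, stood at 145, 146 and 144 FPKM in the control, clone 1 and clone 2. The subunits of the cleavage factor that favours the early site also stayed within 2-fold. CPSF6 had 21.4, 19.7 and 25.0 FPKM, and NUDT21 had 22.9, 22.4 and 19.6.

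The lowest mean ratios among the other listed paraspeckle proteins were those of HNRNPR (28.2, 26.6 and 17.2 FPKM) and RBMX (58.2, 52.1 and 45.9 FPKM), both RNA-binding proteins of the hnRNP family. SS18L1, a subunit of a chromatin remodelling complex, had one of the highest, at 6.42, 7.32 and 7.43 FPKM, as did RBM7, part of an RNA decay adaptor, at 1.67, 1.86 and 2.05. HNRNPR and PSPC1 were alike in being lower in clone 2 than in both other libraries.

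Nuclear speckle proteins make up the surroundings of MALAT1. Of 22 listed, 21 passed the filter and none was past 2-fold, where 0.737% to 1.33% of all genes were by clone and direction. The median log2 ratio was 0.078 in clone 1, where 14 lay above the control, and -0.11 in clone 2, where 8 did. Of all 11675 genes, 6566 lay above the control in clone 1 and 5654 in clone 2. Of the listed genes, 8 lay above it in both clones (38.1%, against 32.4% of all genes). Another 7 lay below it in both (33.3%, against 27.7%), so these shares were near those of all genes. The ratios ran from -0.17 to 0.36 in clone 1 and from -0.47 to 0.26 in clone 2. SON, the core scaffold of nuclear speckles, had 11.5 FPKM in the control, 15.1 in clone 1 and 14.0 in clone 2. NKTR, a cyclophilin with an arginine-serine domain, had 4.65, 6.04 and 5.74. The splicing factors SRSF2 (74.2, 72.6 and 53.4 FPKM) and SRSF6 (49.9, 49.9 and 36.9 FPKM) had the lowest mean ratios, and in both it was clone 2 that lay below.

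The factors that make or bind the unusual ends were listed as the protein subunits and the RNA (RPPH1) of ribonuclease P, ELAC2 and METTL16. RPPH1 was at 0 FPKM in every library. Of 13, 12 passed the filter and none was past 2-fold on log2(FPKM + 1), where 0.737% to 1.33% of all genes were by clone and direction. Of the 12, 8 lay below the control in both clones (27.7% of all genes did) and 1 above it (32.4% did). The medians were -0.089 in clone 1 and -0.15 in clone 2. METTL16, a methyltransferase that binds the MALAT1 triple helix, had 4.30 FPKM in the control, 4.44 in clone 1 and 4.04 in clone 2. The ribonuclease P subunits RPP25 (1.40, 0.581 and 1.20 FPKM) and POP7 (46.1, 35.8 and 38.5 FPKM) had the lowest mean ratios. Without the pseudocount, RPP25 in clone 1 was at 0.416 of the control, past 2-fold lower. POP1, the largest subunit, had 4.80, 5.22 and 5.17 FPKM, and RPP40 had 4.49, 5.43 and 4.13.

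Other well-known long noncoding RNAs were listed for comparison. Of 27 entries 21 passed the filter and none was past 2-fold, where 0.737% to 1.33% of all genes were by clone and direction. Of these, 3 lay above the control in both clones (32.4% of all genes did) and 9 below it (27.7%). The medians were -0.14 in clone 1 and -0.037 in clone 2 (0.031 as TPM). This list was chosen with earlier results known and leaves out H19. At 109, 30.3 and 4.55 FPKM in the control, clone 1 and clone 2, H19 was past 2-fold lower in both clones. MIR22HG, the host of a microRNA, came nearest to the pattern, with 3.32 FPKM in the control, 6.11 in clone 1 and 6.29 in clone 2, or 0.72 and 0.76 on the log2(FPKM + 1) scale. TUG1 had 13.1, 16.2 and 14.9 FPKM. DANCR (45.0, 35.9 and 31.5 FPKM) and EPB41L4A-AS1 (4.87, 3.34 and 4.03 FPKM), both hosts of small nucleolar RNAs, lay below the control in both clones.

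Histone genes of the HIST1H and HIST2H clusters were listed because most messages of these clusters end in a stem-loop in place of a poly(A) tail. Every symbol with these prefixes was taken, so the list also holds pseudogenes, such as HIST1H1PS1 and HIST1H2BPS3. Over all 85, 19 lay above the control in both clones and 12 below it, and the median log2 ratio was 0 in both clones. The 10 that passed the filter lay above the control in both clones, where 32.4% of all genes past it did, with medians of 0.49 in clone 1 and 0.32 in clone 2, although none was past 2-fold and HIST1H2BJ lay above by 0.0037 in clone 1, less than the 0.037 of the median gene. HIST2H2BE, which passed the filter only through the clones, had 0.531, 1.16 and 1.94 FPKM in the control, clone 1 and clone 2, and HIST1H2BD had 4.94, 8.26 and 8.11. Without the pseudocount, HIST2H2BE was past 2-fold in both clones, at ratios of 2.18 and 3.65, and HIST1H2BC in clone 1, at 2.53. The smallest mean ratios were those of HIST1H2BJ (1.89, 1.89 and 2.12 FPKM) and HIST1H2BK (72.6, 89.8 and 74.9 FPKM). Of all 85, 39 were at 0 FPKM in the control, 46 in clone 1 and 45 in clone 2, pseudogenes among them. Whether the reads of the 10 that passed came from messages with or without a poly(A) tail cannot be told from these values. Summed over all 85, the level was 129 FPKM in the control, 175 in clone 1 and 149 in clone 2. A part of poly(A) selection in this and in the NEAT1 values was not tested. Mitochondrial transcripts took 66489 FPKM in the control, 63481 in clone 1 and 57046 in clone 2, or 24.3%, 24.2% and 21.9% of the summed FPKM.

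NEAT1 and MALAT1 are neighbours on chromosome 11, with 52.1 kb between the end of one and the start of the other. Of 41 other genes in the table within 250 kb of either, 16 passed the filter, with median log2 ratios of -0.034 in clone 1 (0.021 as TPM) and 0.17 in clone 2. Of these, 6 lay above the control in both clones (37.5%, against 32.4% of all genes) and 3 below it (18.8%, against 27.7%). The 6 include FAM89B, which reached the filter only through its level in the clones. None was past 2-fold in both, where 0.120% of all genes were higher and 0.206% lower. FRMD8, which lies before NEAT1, stood at 7.12 FPKM in the control, 9.02 in clone 1 and 9.61 in clone 2.

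CDC42EP2, a binding partner of the small GTPase CDC42, was past 2-fold higher in clone 2, with 5.99 FPKM in the control, 2.67 in clone 1 and 13.7 in clone 2. Its clones thus lay on opposite sides of the control. The highest mean ratios among the neighbours were those of FAM89B (0.708, 1.45 and 1.19 FPKM), which passed the filter only through the clones, and EHBP1L1 (8.47, 12.5 and 10.5 FPKM), and the lowest were those of RNASEH2C (12.8, 8.72 and 10.2 FPKM) and SSSCA1 (16.7, 11.1 and 15.7 FPKM). The neighbours' log2 ratios ran from -0.93 to 0.52 in clone 1 and from -0.30 to 1.07 in clone 2.

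The genes most like NEAT1 were taken as those with the smallest Euclidean distance between the pairs of log2 ratios, over 2 clones that share 1 control. The 5 nearest were ENSG00000264991 (0.120), RNU6-762P (0.180), ABCC3 (0.244), RN7SL381P (0.265) and MIR4664 (0.272), of which ABCC3, an organic anion exporter, had 5.28, 11.4 and 10.9 FPKM in the control, clone 1 and clone 2. RNU6-762P and RN7SL381P, at 0.826 and 0.707 FPKM in the control, passed the filter only through the clones, where they were high. MALAT1 came 23 in this order, at a distance of 0.445. The 5 nearest to MALAT1 were SNORD100 (0.0382), HMGCS1 (0.0629), AL606489.1 (0.0988), EHF (0.0988) and AC008982.2 (0.111), of which AL606489.1, at 0.390 FPKM in the control, passed only through the clones. SNORD100 and, in the NEAT1 order, MIR4664 are small RNA genes, and their reads are not given here. HMGCS1, an enzyme of cholesterol synthesis, had 15.8, 34.6 and 25.9 FPKM, and EHF, an epithelial transcription factor, had 8.10, 16.3 and 13.6.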

How the data were processed

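RNA-Seq of 1 DLD1 control library and 2 BEX2-/- clones (n = 2, 1 library each) was used. Total RNA was made into libraries with the Illumina TruSeq RNA kit. The authors deposited FPKM values per gene. Their processing notes list Trim Galore 0.3.7, STAR 2.5, Cufflinks 2.2.1, DESeq 1.22.1 and hg19, while the gene annotation is not given in the sources used here. Coordinates and sequences are from GENCODE release 29 (GRCh38), which holds 56996 of the 60504 identifiers, 3508 being absent. Multiplied by merged exon length, 98.7% to 98.8% of values under 100 reads came out whole (within 0.02 reads) for genes with a single transcript and 87.8% to 88.3% for others, which gave the depths and read numbers. This step, and a length of 8755 bases for MALAT1, which is the span from the start of its longest transcript to the annotated end of the gene, were chosen after values were seen.

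Ratios were taken on log2(FPKM + 1), which understates the change of low genes, over genes with a mean of at least 1 FPKM, and 2-fold was the threshold. With 1 control library no test was made. The genes and lists were chosen with earlier results of these data known, the lists from general knowledge. Genes named were the 6, their pseudogenes and overlapping genes, the 5 nearest in pattern to NEAT1 and MALAT1, HNRNPK, CPSF6, NUDT21, METTL16 and the 2 highest and 2 lowest mean ratios of each list. FRMD8, CDC42EP2, H19, EPCAM and KRT20 were named after their values were seen. Results for some genes that the rule names are left out here. Alternatives were a pseudocount of 0.1 or none, filters of 0 and 5 FPKM, scaling to TPM or by the median ratio, a 1.5-fold threshold and leaving out each clone. Python 3.11.15, numpy 2.4.6, pandas 2.3.3, scipy 1.17.1, matplotlib 3.10.9 and Biopython 1.88 were used. The steps were tested on simulated data.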

Additional observations from a re-analysis of the deposited data

How the results depend on the processing

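NEAT1 stayed past 2-fold higher in both clones under the alternatives that could change its log2 ratio, those of pseudocount and scaling. With a pseudocount of 0.1 the ratio was 1.23 in clone 1 and 1.16 in clone 2. It was 1.23 and 1.17 with none (an alternative chosen after seeing the data). As TPM it was 1.27 and 1.22, and by the median ratio 1.11 and 1.10. The filters and leaving out a clone do not alter a gene's own ratio, and 1.5-fold is looser. These alternatives could therefore not have changed the outcome for NEAT1. MALAT1 fell short of 2-fold in clone 1 when scaled by the median ratio, which left 1 of the 6 genes past the threshold there. At 1.5-fold it was past in clone 2, giving 2 genes in clone 2 and 2 in both clones. Leaving out each clone in turn gave 1 to 2 genes for both clones, MALAT1 being the second with clone 1 alone. With median scaling, clone 2 against clone 1 became -0.0064 for NEAT1, 0.24 for NONO and -0.32 for SFPQ. RBM14 in clone 2 became 0.072 as TPM. Signs of protein genes close to the control flipped with scaling, SFPQ in clone 1 to -0.0071 by the median ratio, and NONO in clone 2 to 0.052 and PSPC1 in clone 1 to 0.036 as TPM.

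List medians moved as follows. For the other paraspeckle proteins the median in clone 1 became -0.028 with no filter, -0.097 by the median ratio and 0.019 as TPM, and in clone 2 it became -0.044 with no filter and -0.013 as TPM. For the end processing list it became -0.036 in clone 1 as TPM and, in clone 2, -0.20 with a pseudocount of 0.1 and -0.21 with none. For mitochondrial transcripts it became 0.049 in clone 1 as TPM and, in clone 2, -0.19 at 5 FPKM and 0 with no filter. As TPM the median also changed sign for the other long noncoding RNAs in clone 2, to 0.031, and for the neighbours in clone 1, to 0.021, as did that of mitochondrial transcripts in clone 1 without a pseudocount, to 0.011. With no filter the histone medians in both clones and that of the neighbours in clone 2 became 0, where many more genes at or near 0 enter. No paired analysis was possible because no result came from a test and the control and the clones share only replicate number 1. With 1 control library the depth sets counting error, and the spread of the control is unknown.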
